A study of Mus musculus with 2 samples.

Results

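The imprinted genes described here are 47 genes of the mouse known to be expressed mainly from the maternal or the paternal copy. For 12 of them this is limited to the brain, the placenta or 1 isoform. They were named as a list by their known imprinting, with earlier results of these data known, and 47 of 47 were found by symbol among the 55416 genes counted. Expression had been measured by bulk RNA-seq of poly(A) RNA in 2 rhabdoid tumors (RT), aggressive tumors of young children that are driven by inactivation of Smarcb1, which encodes part of the SWI/SNF complex that remodels chromatin. Both tumors arose in Dppa3-cre::Smarcb1 Fl/+ mice on a C57BL/6 background, which carry Cre recombinase in the locus of Dppa3, a gene expressed by primordial germ cells (PGCs), and 1 floxed allele of Smarcb1. Per the labels, 1 tumor was intracranial and 1 was extracranial. The study describes 1 intracranial tumor of this model at the trigeminal nerve and 1 extracranial tumor in the maxillary region. By clustering, it placed both sequenced tumors with the MYC class. Each location was represented by 1 tumor piece and 1 library, neither age nor sex was given in the sources used here, and no normal tissue was sequenced alongside.

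In genomic imprinting, DNA methylation set in the egg or the sperm at an imprinting control region makes the copies inherited from the mother and the father behave differently. Imprinted genes lie in clusters under 1 control region each, in which maternally and paternally expressed genes sit side by side, often with a long noncoding RNA that acts on its neighbors. The marks are held through early development by DNMT1 together with the zinc finger proteins ZFP57 and ZFP445 and their partner TRIM28, and they are erased in PGCs before being set anew. Counts per gene do not separate the copies, so neither the state of an imprint nor expression from 1 or both copies was measured here. Maternal and paternal below refer to the copy that is known to be expressed where the mouse gene is imprinted.

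The library labelled intracranial held 34545846 counts and the library labelled extracranial 26915696, and 3 counts, taken as background, correspond to 0.0863 and 0.112 CPM, which are counts scaled to a library of equal size in the usual unit. With 1 library per location there is no replicate spread, so each difference is one between 2 libraries, every interval covers counting error alone, and no p-value is given. The target Smarcb1 was counted at 10.5 and 19.8 CPM in the libraries labelled intracranial and extracranial. Postn and Bmp4, which the study names as marks of tumor location from single tumor cells of other mouse models, went against the labels in these bulk pieces. Postn, named for extracranial tumor cells, had 49555 and 20657 counts (log2 ratio, extracranial over intracranial, -0.89, with an interval of -0.91 to -0.86), and Bmp4, named for intracranial MYC tumor cells, had 625 and 1029 (1.10, 0.95 to 1.24). Angptl7, named for spinal tumor cells, had 13969 and 20351 counts (0.92, 0.89 to 0.95). Of the pituitary markers, Gh had 244 and 0 counts and Prl 35 and 0. Whether the labels are right was not tested. The libraries are therefore called by their labels, and each direction below holds for the library so labelled. Both pieces held other cells. All 10 keratinocyte markers together reached 24653 CPM in the library labelled intracranial and 3.10 CPM in the other, with Krt5, Krt6a, Krt6b, Krt1, Trp63 and Dsg3 at 0 counts in the latter. Macrophage markers reached 5874 and 13176 CPM, fibroblast markers 4386 and 5777 CPM, endothelial markers 228 and 392.8 CPM, Schwann cell markers 246.8 and 253.3 CPM, neuron markers 89.1 and 145.8 CPM, adipocyte markers 21.1 and 51.2 CPM, skeletal muscle markers 54.4 and 10.2 CPM, and pituitary markers 53.5 and 18.5 CPM, most of it Pitx1, without which they reached 9.44 and 0.336 CPM. PGC markers summed to 24.8 and 23.9 CPM but did not move together, since Tfap2c had 320 and 7 counts while Dppa3, Ddx4, Kit and Prdm1 were higher in the library labelled extracranial, and Pou5f1 and Prdm14 were at 0 in both. What these cells contributed to the differences below was not tested, and in bulk tissue, fewer cells of a type and less RNA per cell cannot be told apart.

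Several imprinted transcripts carry miRNAs, and a few are shown as examples from genes described below. Coordinates and sequences are those of RefSeq on GRCm38.p6, given 5′ to 3′, with the seed (bases 2 to 8) in capitals. H19 is the precursor of miR-675, and Mest holds miR-335 in an intron. Rian and Mirg, noncoding RNAs of the Dlk1-Meg3 cluster, carry miR-370, miR-134 and miR-410, and miR-127 and miR-136 lie on the strand opposite to Rtl1.
miR-675-5p, chr7:142577112-142577133, minus strand: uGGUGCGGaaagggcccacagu
miR-335-5p, chr6:30741314-30741336, plus strand: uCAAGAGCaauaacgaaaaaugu
miR-370-3p, chr12:109618305-109618326, plus strand: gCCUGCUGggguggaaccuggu
miR-134-5p, chr12:109734145-109734166, plus strand: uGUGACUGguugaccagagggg
miR-410-3p, chr12:109743764-109743784, plus strand: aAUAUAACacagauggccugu
miR-127-3p, chr12:109592888-109592909, plus strand: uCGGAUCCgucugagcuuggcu
miR-136-5p, chr12:109595331-109595352, plus strand: aCUCCAUUuguuuugaugaugg
Their seeds differ from each other. From the start of Dlk1 to the end of Mirg, a stretch of 296638 bases, RefSeq lists 57 hairpins with 112 mature miRNAs. Mature miRNAs have no poly(A) tail and were not measured by these counts.

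The start sites of Meg3, Plagl1 and Rasgrf1 are printed because Meg3 belongs to the cluster with most of the imprinted RNA and the other two differed the most between the tumors, in opposite directions. Each stretch runs from 250 bases before to 50 bases after the start in RefSeq on GRCm38.p6, 5′ to 3′ on the strand of the gene. Capitals mark TGCCGC or its reverse complement GCGGCA, the letters that ZFP57 recognizes when methylated.
Meg3, chr12:109540746-109541045, plus strand: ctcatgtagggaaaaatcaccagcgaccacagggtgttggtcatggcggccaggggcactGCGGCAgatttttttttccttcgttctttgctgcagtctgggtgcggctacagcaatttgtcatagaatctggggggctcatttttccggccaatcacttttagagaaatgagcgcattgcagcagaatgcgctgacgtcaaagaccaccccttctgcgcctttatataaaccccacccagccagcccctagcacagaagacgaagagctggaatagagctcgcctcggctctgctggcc
Plagl1, chr10:13090582-13090881, plus strand: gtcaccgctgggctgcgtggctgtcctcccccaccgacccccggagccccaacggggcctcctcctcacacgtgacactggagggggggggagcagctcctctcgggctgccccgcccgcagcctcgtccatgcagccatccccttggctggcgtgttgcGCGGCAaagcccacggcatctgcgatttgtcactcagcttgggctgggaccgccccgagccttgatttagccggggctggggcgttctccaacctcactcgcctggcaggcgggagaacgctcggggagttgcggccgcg
Rasgrf1, chr9:89909525-89909824, plus strand: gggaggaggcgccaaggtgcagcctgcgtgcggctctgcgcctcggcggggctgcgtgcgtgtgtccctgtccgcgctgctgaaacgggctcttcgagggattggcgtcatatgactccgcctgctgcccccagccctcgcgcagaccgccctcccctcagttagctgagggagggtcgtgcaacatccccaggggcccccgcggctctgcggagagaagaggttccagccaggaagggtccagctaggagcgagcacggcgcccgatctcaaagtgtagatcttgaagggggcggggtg
The letters occur once in the windows of Meg3 and Plagl1 and not in that of Rasgrf1. Windows were found for 38 of the 47 genes, and 13 of these genes (34.2%) held the letters in at least 1 window, compared with 3527 of 27025 genes (13.1%) in all. Counted by window, the shares were 24.6% of 57 and 11.6% of 32851. Taking for each gene its window with the most CpG, the imprinted genes also held more, with a median of 17 against 8. The windows of Peg3 and Usp29, which start back to back, share 263 of 300 bases. A match of letters is a description of the sequence and does not show a bound site.

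Of the 47 imprinted genes, 44 had 10 or more counts over both libraries and were compared. Igf2, Usp29 and Zdbf2 had fewer. More than 3 counts were found for 45 genes in the library labelled intracranial and for 40 in the library labelled extracranial. The median log2 ratio of the 44 genes, extracranial over intracranial, was -0.20, against -0.04 for all 21977 genes with 10 or more counts. The whole 95% interval lay on the intracranial side for 26 genes (59.1%) and on the extracranial side for 9 (20.5%), whereas it did so for 7079 (32.2%) and 6421 (29.2%) of all genes. Of protein-coding genes, 37.8% and 33.0% did. Without the Dlk1-Meg3 cluster, the shares of the imprinted genes were 53.8% and 23.1%, and without genes with exon overlap 50% and 25%. Both subsets were chosen after seeing the data. The imprinted genes also had more counts, with a median of 1150 over both libraries against 599 for all genes compared, which narrows their intervals. Other scalings of the libraries gave 23 to 27 genes on the intracranial side and 9 on the extracranial side.

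A gene was called where its whole interval lay beyond 4-fold. By this rule 5 of the 44 imprinted genes were higher in the library labelled intracranial, namely Plagl1, Slc38a4, Slc22a18, Phlda2 and Gnas, while 1190 of all 21977 genes (5.41%) were. Another 2 of the 44, Rasgrf1 and Mest, were higher in the library labelled extracranial, against 391 of 21977 (1.78%). Beyond 2-fold, 7 of the 44 were higher in the former (9.77% of all genes) and 3 of the 44 in the latter (5.86% of all genes). This adds Peg3, Nap1l5 and Ppp1r9a. The remaining genes differed less, and the log2 ratio of 29 of the 44 (65.9%) lay within 2-fold, compared with 72.4% of all genes. Most imprinted genes were therefore within 2-fold between the tumors, with a few large differences in either direction.

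**Figure D1:**
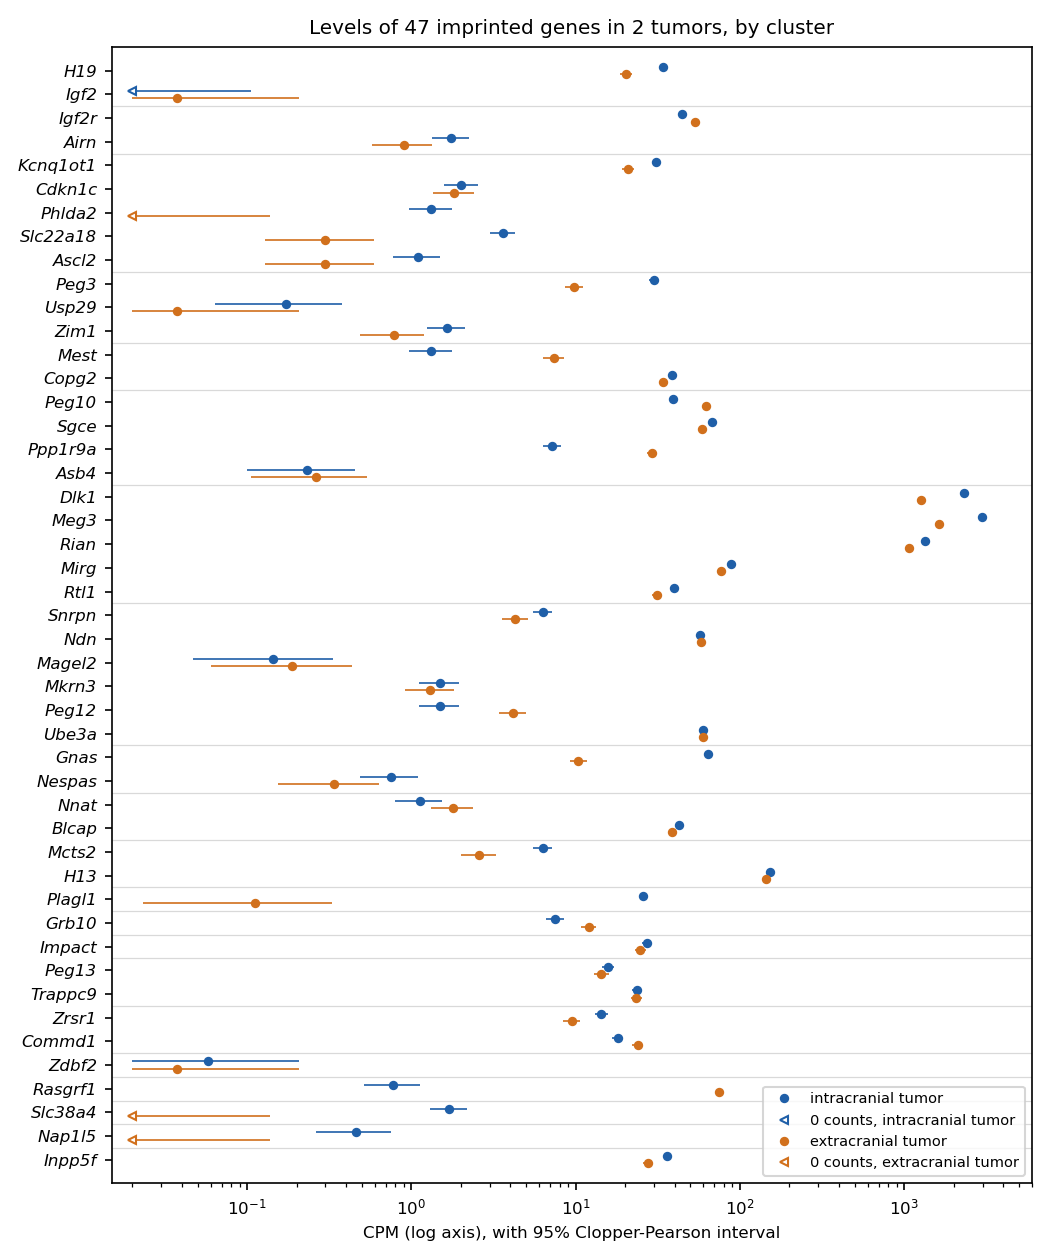
Level of each of the 47 imprinted genes in CPM on a log axis, in the intracranial (blue) and the extracranial (orange) tumor, 1 library each, with the exact 95% Clopper-Pearson interval as a bar and open triangles for 0 counts; intervals that reach under the axis are drawn to its left end, and grey lines separate the clusters. Dlk1, Meg3 and Rian lie above 1000 CPM in both tumors, and Rasgrf1 and Plagl1 show the widest gaps between the tumors.

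The Dlk1-Meg3 cluster on chromosome 12 held most of the imprinted RNA. Dlk1 encodes a noncanonical ligand of the Notch family, known from fetal and progenitor cells, and is expressed from the paternal copy, as is Rtl1, a gene derived from a retrotransposon. The noncoding RNAs Meg3, Rian and Mirg are expressed from the maternal copy. Its 5 genes summed to 6737 CPM in the library labelled intracranial and 4072 CPM in the library labelled extracranial, which was 88.6% and 82.9% of the counts of all 47 genes. Without them, the sums of the imprinted genes were close, at 870.2 and 837.2 CPM.

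Dlk1 (ENSMUSG00000040856) had 80643 counts, or 2321 CPM, in the library labelled intracranial and 33758 counts, or 1262 CPM, in the other. This is a log2 ratio of -0.88 (-0.90 to -0.86). Meg3 (ENSMUSG00000021268) had 102797 and 43884 counts, or 2958 and 1640 CPM, and its log2 ratio was -0.85 (-0.87 to -0.84). The paternally and the maternally expressed gene were thus both lower in the library labelled extracranial, and their intervals overlapped. Per kilobase of exon, the level of Meg3 was 0.399 times that of Dlk1 in the library labelled intracranial and 0.407 times in the library labelled extracranial.

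Rian, with 46220 and 28444 counts (1330 and 1063 CPM), differed less, with a log2 ratio of -0.32 (-0.34 to -0.30). Mirg was at 87.8 and 76.7 CPM with a log2 ratio of -0.20, and Rtl1 at 40.0 and 31.4 CPM with one of -0.35. All 5 genes were on the intracranial side, against 32.2% of all genes, and their high counts narrow the intervals. The noncoding RNAs did not move by the same factor, since Rian was at 0.446 times the level of Meg3 per kilobase in the library labelled intracranial and at 0.643 times in the library labelled extracranial. From the same domain, Dio3, which encodes an enzyme that inactivates thyroid hormone, had 199 and 17 counts (log2 ratio -3.17, -3.98 to -2.46). Begain, at its other end, had 2523 and 471 counts (log2 ratio -2.04, -2.19 to -1.90).

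By CPM per kilobase of exon, which allows for gene length, Dlk1, Meg3 and Rian held places 1, 2 and 3 among the imprinted genes in both libraries. In the order intracranial and extracranial, Dlk1 stood at 410.3 and 223 CPM per kilobase, Meg3 at 163.5 and 90.7, and Rian at 73.0 and 58.3. Their intervals within a library do not overlap. H13, a signal peptide peptidase, and Ndn followed in both libraries, at 17.3 and 15.5 CPM per kilobase in the library labelled intracranial and at 16.3 and 15.8 in the library labelled extracranial. Over all genes with counts above background in either library, Dlk1 lay at percentile 98.8 and 98.0 per kilobase. Meg3 lay at percentile 97.4 and 96.2.

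**Figure D2:**
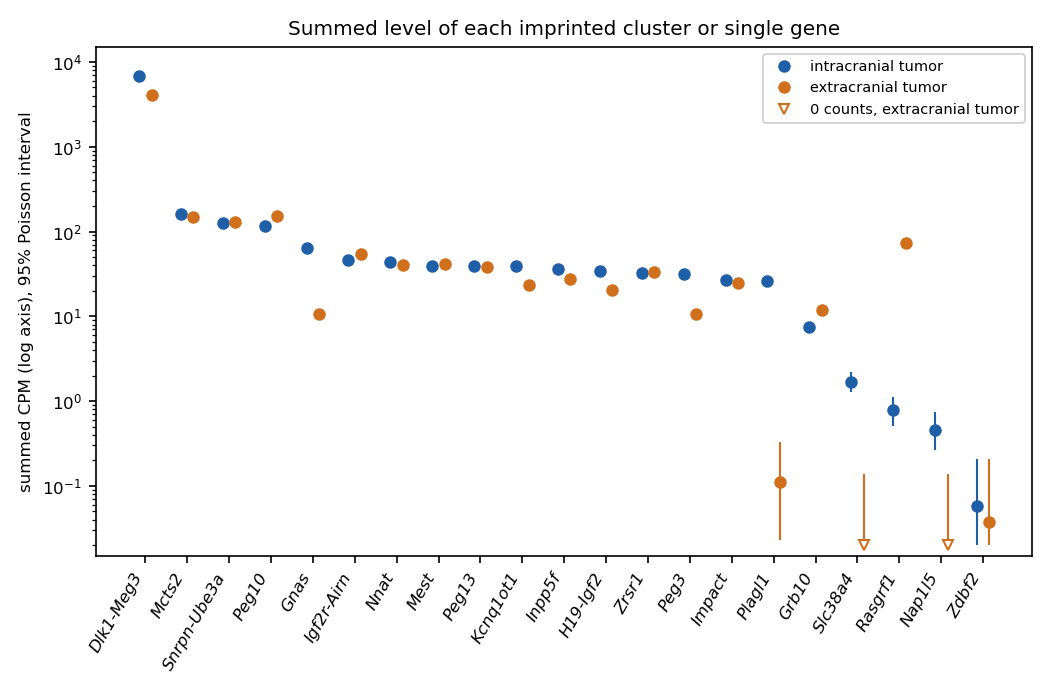
Summed level of each imprinted cluster or single gene in CPM on a log axis, ordered by the intracranial tumor (blue) with the extracranial tumor (orange) beside it, 1 library each, with exact 95% Poisson intervals and open triangles for 0 counts. The Dlk1-Meg3 cluster stands above all others in both tumors, and Gnas, Plagl1, Slc38a4 and Rasgrf1 lie apart between them.

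The single gene with the widest gap on the intracranial side was Plagl1 (ENSMUSG00000019817), which encodes a zinc finger transcription factor, also known as Zac1, that restrains growth and acts on other imprinted genes. It had 897 counts (25.8 CPM, 24.2 to 27.6) in the library labelled intracranial and 3 counts (0.112 CPM, 0.0231 to 0.328) in the library labelled extracranial. The log2 ratio was -7.85 (-10.13 to -6.30), and the extracranial count lay at background. The sums of keratinocyte, skeletal muscle and pituitary markers went the same way. Those of macrophage, fibroblast, endothelial, neuron and adipocyte markers went the other way, and that of Schwann cell markers was near equal (246.8 and 253.3 CPM). Single markers did not always follow their sum. In the library labelled intracranial, 8 of 10 Schwann cell, 6 of 10 fibroblast and 4 of 10 neuron markers were higher.

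Rasgrf1 (ENSMUSG00000032356), a Ras exchange factor known from neurons, stood at the other end and is among the genes of limited imprinting listed below. It had 27 counts (0.777 CPM, 0.512 to 1.13) in the library labelled intracranial and 1985 counts (74.2 CPM, 70.9 to 77.5) in the library labelled extracranial, a log2 ratio of 6.58 (6.03 to 7.18). Among the imprinted genes it was in place 42 by level per kilobase in the former and in place 10 in the latter. The summed neuron markers were higher in the same library but by less, with 6 of 10 higher there, Nefl and Stmn2 among them, and Snap25, Tubb3, Elavl4 and Gap43 lower. Nefl had 396 and 1613 counts, Stmn2 713 and 1275, Snap25 830 and 199, Tubb3 629 and 118 and Elavl4 28 and 3.

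**Figure D3:**
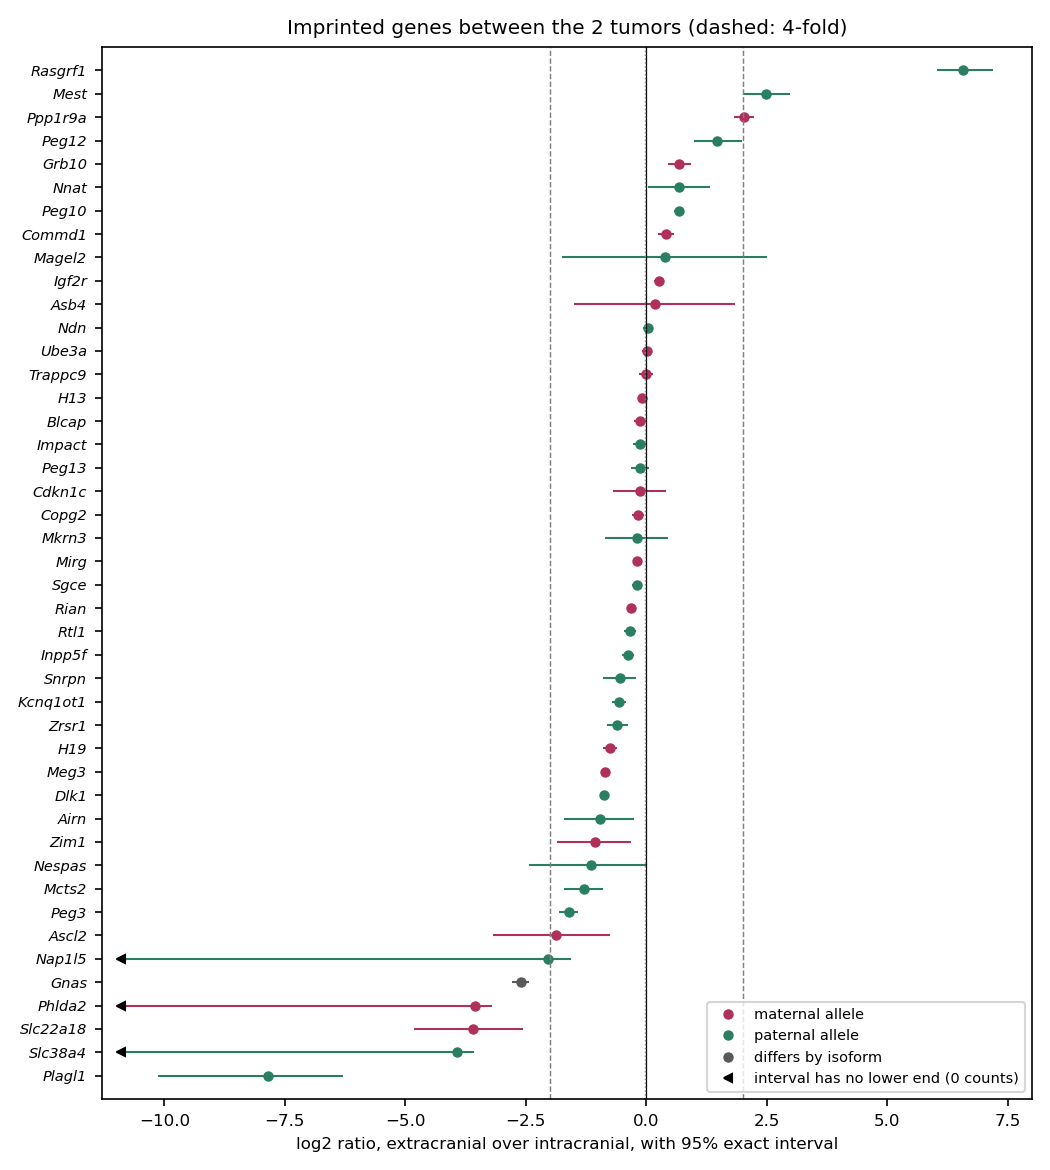
Log2 ratio, extracranial over intracranial, of the 44 imprinted genes with 10 or more counts, with 95% exact intervals, colored by the expressed copy; dashed lines mark 4-fold, counts of 3 or fewer are set to 3, and arrows mark intervals without a lower end. Rasgrf1 at 6.58 and Plagl1 at -7.85 lie farthest from 0, and genes of the maternal and the paternal copy are found on both sides.

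Maternally and paternally expressed genes moved in both directions. Of the 19 maternally expressed genes compared, 11 (57.9%) were on the intracranial and 4 (21.1%) on the extracranial side, against 32.2% and 29.2% of all genes, with a median log2 ratio of -0.14. Of the 24 paternally expressed genes compared, 14 (58.3%) and 5 (20.8%) were, with a median of -0.36. The genes whose imprint is limited to the brain, the placenta or 1 isoform are Ascl2, Ppp1r9a, Copg2, Ube3a, Blcap, H13, Trappc9, Commd1, Grb10, Inpp5f, Rasgrf1 and Gnas. Leaving out those in each group moved the maternal median to -0.54 over 10 genes and the paternal one to -0.45 over 22. The order of the medians is thus not kept. Beyond 4-fold, 2 of the 19 maternally expressed genes were called on the intracranial side. Of the 24 paternally expressed genes, 2 were called on each side, against 5.41% of all genes on the intracranial and 1.78% on the extracranial side.

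The H19-Igf2 pair shares 1 control region on chromosome 7, where the noncoding RNA H19 is expressed from the maternal and the growth factor gene Igf2 from the paternal copy. H19 (ENSMUSG00000000031) had 1190 counts (34.2 CPM) in the library labelled intracranial and 543 (20.3 CPM) in the other, a log2 ratio of -0.76 (-0.90 to -0.61). Igf2 was counted at 0 and 1. In the annotation used here, 64.5% of its exon bases overlap exons of other genes, and 62.8% those of a readthrough gene, Gm49394, on the same strand, which was itself at 0 and 0. Its other 2029 exon bases are free of overlap and are included in these counts. Among genes of at least 200 exon bases whose exons lie to 99% or more in 1 gene with 1000 or more counts, 22 of 22 on the same strand and 95 of 96 on the opposite strand had 0 counts in both libraries. Of genes of the same types with no such overlap, 36.6% and 40.2% had 0 counts. That check covers genes lying almost whole inside another, so what a part overlap did to the count of Igf2 was not tested.

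Igf2r, on chromosome 17, encodes a receptor that clears IGF2 and is maternally expressed. It was higher in the library labelled extracranial, with 1550 and 1425 counts (44.6 and 53.3 CPM) and a log2 ratio of 0.26 (0.15 to 0.36). Airn, the paternal noncoding RNA that silences it in cis, was lower there, at 61 and 24 counts (log2 ratio -0.97, -1.72 to -0.27). The pair thus lay on opposite sides.

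Of the 5 genes measured in the Kcnq1ot1 cluster on chromosome 7, 4 were on the intracranial side, against 32.2% of all genes. Kcnq1ot1, the paternal noncoding RNA of the cluster, had 1075 and 558 counts (log2 ratio -0.57, -0.72 to -0.42). Phlda2 (ENSMUSG00000010760), a maternally expressed gene that limits growth of the placenta, had 46 and 0 counts, which is 11.8-fold lower in the library labelled extracranial when set to a floor of 3 counts per library (0.112 CPM) and at least 9.22-fold lower by its counting interval. The transporter gene Slc22a18 (ENSMUSG00000000154) had 125 and 8 counts (log2 ratio -3.59, -4.83 to -2.57). Phlda2 and Slc22a18, which neighbor each other, were therefore both called. For Ascl2, a transcription factor of the trophoblast, there were 38 and 8 counts, and the interval of its log2 ratio of -1.87 (-3.18 to -0.75) reached from under 2-fold to over 4-fold. The cell cycle inhibitor gene Cdkn1c had 70 and 49 counts (log2 ratio -0.14, -0.69 to 0.41), which were not distinguishable at this depth, and 30.7% of its exon bases overlap another gene. In sum, keratinocyte, skeletal muscle and pituitary markers moved with the called genes, while macrophage, fibroblast, endothelial, neuron and adipocyte markers moved the other way.

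In the Gnas cluster on chromosome 2, Gnas (ENSMUSG00000027523) had 2207 counts (63.5 CPM, 60.9 to 66.2) in the library labelled intracranial and 278 (10.4 CPM, 9.20 to 11.7) in the library labelled extracranial. Its log2 ratio was -2.61 (-2.80 to -2.43). Gnas encodes the stimulatory G protein subunit and, from other start sites, isoforms expressed from the maternal or the paternal copy, which counts per gene do not separate. Its antisense partner Nespas had 26 and 9 counts (log2 ratio -1.15, -2.43 to -0.01). Both genes were thus on the intracranial side, the second only just, and its interval reached 0 with upper quartile scaling. Exon overlap touched 22.0% of the bases of Gnas and 31.4% of those of Nespas. Pituitary markers, like keratinocyte and skeletal muscle markers, were also higher in the library labelled intracranial, with Gh at 244 and 0 counts, Pitx1 at 1532 and 486 and Lhb and Fshb at 0 in both.

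Slc38a4 (ENSMUSG00000022464), an amino acid transporter gene of the paternal copy, had 59 and 0 counts, which is 15.1-fold lower in the library labelled extracranial at the same floor and at least 11.9-fold lower by its interval. Nap1l5 had 16 and 0 counts, and its interval, from 2.97-fold lower, did not reach the 4-fold limit. Of the Peg3 cluster, the zinc finger gene Peg3 had 1041 and 263 counts (30.0 and 9.83 CPM, log2 ratio -1.61, -1.81 to -1.41). Zim1, its maternally expressed neighbor, had 57 and 21 counts (log2 ratio -1.06, -1.86 to -0.32), and Usp29 had 6 and 1. The Peg3 cluster was thus lower in the library labelled extracranial as a whole, with sums of 31.8 and 10.6 CPM.

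Mest (ENSMUSG00000051855), a paternally expressed gene of the hydrolase family known from mesoderm, was on the extracranial side, with 46 and 197 counts (1.32 and 7.36 CPM). Its log2 ratio of 2.48 (2.01 to 2.97) passed 4-fold narrowly, and with total counts in place of scaled libraries its interval began at 1.99 and the call was lost. Mest shares 23.1% of its exon bases with the opposite gene Copg2, a coat protein gene at 1333 and 914 counts (log2 ratio -0.17, -0.29 to -0.05). Neighbors in the Mest cluster therefore lay on opposite sides.

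The Peg10 cluster on chromosome 6 was mixed as well. Peg10, a gene derived from a retrotransposon that is needed in the placenta, had 1362 and 1674 counts (39.2 and 62.6 CPM, log2 ratio 0.67, 0.57 to 0.78). Sgce, a sarcoglycan gene that shares its control region and its paternal expression, had 2366 and 1582 counts (log2 ratio -0.20, -0.30 to -0.11). Per kilobase, Peg10 was at 0.916 times the level of Sgce in the library labelled intracranial and at 1.68 times in the other. Ppp1r9a, a synaptic scaffold gene, had 251 and 781 counts (7.22 and 29.2 CPM), and its log2 ratio of 2.01 (1.81 to 2.23) passed 2-fold but not 4-fold as an interval. Asb4 had 8 and 7 counts.

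The Snrpn-Ube3a cluster, whose human counterpart is affected in Prader-Willi and Angelman syndromes, was near equal in sum, at 126 and 127.9 CPM. Ndn, encoding the growth-restraining protein necdin, had 1987 and 1561 counts (log2 ratio 0.03, -0.07 to 0.13), and the ubiquitin ligase gene Ube3a had 2063 and 1595 (log2 ratio 0.01, -0.09 to 0.10). By counting error alone, the difference in the counts of Ndn and Ube3a was thus bounded well within 2-fold. Of the exon bases of Ube3a, 27.3% overlap genes on the opposite strand. Of the cluster, 1 gene lay on each side. Peg12 was higher in the library labelled extracranial, at 52 and 111 counts and a log2 ratio of 1.47 (0.98 to 1.97). Snrpn, a splicing protein gene, lay on the other side, with 219 and 115 counts (log2 ratio -0.55, -0.89 to -0.22), with 34.1% of its exon bases shared with other genes, and Mkrn3 and Magel2 had intervals that included 0.

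Of the remaining genes, Mcts2 was lower in the library labelled extracranial, with 220 and 69 counts (log2 ratio -1.30, -1.71 to -0.90), while its host gene H13 differed little, with 5324 and 3872 counts (log2 ratio -0.08, -0.14 to -0.02). The splicing factor gene Zrsr1 lay at -0.60 (-0.82 to -0.38) and the phosphatase gene Inpp5f at -0.38 (-0.52 to -0.25). On the other side were Grb10, an adapter that dampens insulin receptor signaling, at 0.68 (0.44 to 0.92), the neuronatin gene Nnat at 0.68 (0.04 to 1.32) and Commd1, which hosts Zrsr1, at 0.40 (0.24 to 0.57). Both retrogenes with a host on the list, Mcts2 and Zrsr1, were thus lower relative to the host in the library labelled extracranial. Blcap, which hosts Nnat, lay at -0.13 (-0.25 to -0.02), and the intervals of Blcap and H13 reached 0 with upper quartile scaling. Impact, Peg13 and Trappc9 had log2 ratios between -0.13 and -0.01 with intervals that included 0, and Zdbf2 was at background in both, with 2 and 1 counts.

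Related genes were examined as lists. Of 37 further imprinted genes, many of them imprinted in the placenta only, 27 had 10 or more counts, with a median log2 ratio of 0.10. On each side lay 10 of them (37.0%), against 32.2% of all genes on the intracranial and 29.2% on the extracranial side. Beyond 4-fold, Cobl (145 and 2 counts, log2 ratio -5.22, -8.86 to -3.92) and Dio3 were called on the intracranial side, against 5.41% of all genes. The proteoglycan gene Dcn, also one of the fibroblast markers, was called on the extracranial side, with 3745 and 21130 counts (log2 ratio 2.87, 2.82 to 2.92). There, 1.78% of all genes were called.

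Of 19 genes that set, hold or erase imprints, 17 had 10 or more counts, and 0 passed 4-fold, where 5.41% and 1.78% of all genes did on the intracranial and the extracranial side, so that a count of 0 among so few is near the background. Their median log2 ratio was 0.17, with 10 genes (58.8%) on the extracranial and 5 (29.4%) on the intracranial side, against 29.2% and 32.2% of all genes. Trim28 was the highest of them, at 129.6 and 161.5 CPM, Dnmt1 was at 51.0 and 64.5 CPM and Zfp57 at 29.1 and 36.9 CPM, so the genes that hold imprints were expressed in both tumors. Dppa3, whose locus carries Cre in these mice and whose product guards methylation in the zygote, had 20 and 91 counts (log2 ratio 2.56, 1.85 to 3.34).

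Of 15 partners of the IGF axis, 13 had 10 or more counts, with a median log2 ratio of 0.35. On the extracranial side lay 6 (46.2%) and on the intracranial side 4 (30.8%), against 29.2% and 32.2% of all genes. The binding protein genes Igfbp2 (1658 and 115 counts, log2 ratio -3.47), Igfbp5 (2565 and 176 counts, -3.49) and Igfbp6 (29765 and 4130 counts, -2.47) were called on the intracranial side, against 5.41% of all genes. The other binding protein genes went the opposite way, with Igfbp3 at 5712 and 9213 counts (1.07), Igfbp4 at 4446 and 7131 (1.06) and Igfbp7 at 2784 and 5343 (1.32), except Igfbp1, which was at 0 in both. Igf2bp2, encoding a protein that binds Igf2 mRNA, was called on the extracranial side, at 82 and 503 counts, for a log2 ratio of 2.99 (2.65 to 3.35). Of all genes, 1.78% were called on that side. The growth factor Igf1 had 846 and 2018 counts (log2 ratio 1.63, 1.51 to 1.75) and the receptor Igf1r 2590 and 1228 (-0.70, -0.80 to -0.60).

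**Figure D4:**
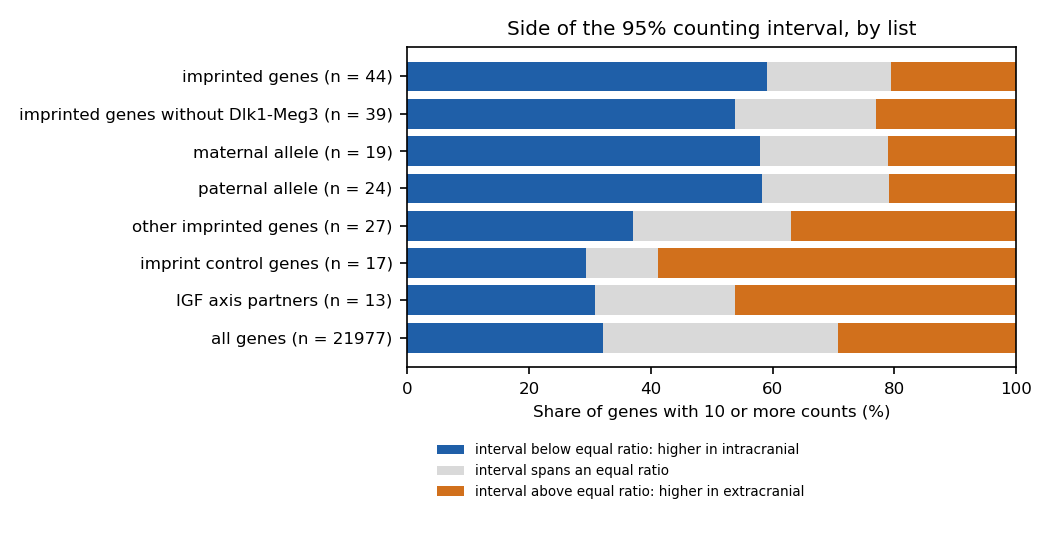
Share of the genes with 10 or more counts in each list whose 95% counting interval lay on the intracranial side (blue), included an equal ratio (grey) or lay on the extracranial side (orange), with the number of genes in the label. The imprinted genes show 59.1% on the intracranial side against 32.2% of all genes, while the other imprinted genes are split evenly.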

How the data were processed

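RNA was taken from 2 tumors, 1 per location, and samples were grouped by the localization label. The deposited table holds raw read counts per Ensembl gene, not normalized. To make them, the authors enriched poly(A) RNA, made directional libraries, aligned single reads with STAR 2.7.9a at default parameters to GRCm39 with Ensembl release 104 and counted with featureCounts. Use of strand and treatment of reads with several alignments are not given in the sources used here.

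Symbols, summed exon lengths and exon overlaps came from GENCODE release M21 on GRCm38, which is older than the authors' annotation, and sequences from RefSeq on GRCm38.p6. Library sizes were scaled by TMM normalization (edgeR 4.0.16, run in R 4.3.3). Levels are CPM with exact Clopper-Pearson 95% intervals, and ratios have conditional exact binomial 95% intervals (scipy 1.17.1), computed for genes with 10 or more counts over both libraries. For ratios, counts of 3 or fewer were set to 3. Without replicates, the quasi-likelihood test could not be fitted, and since the reads carry no molecular identifiers and need not be independent molecules, intervals and floors cover counting error only. Procedures were tested on simulated data.

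The genes and lists were chosen with earlier results of these data known. The exon overlap check and its length minimum, which was set after a first run without one, the ZFP57 letters, the sequences shown and the values without Dlk1-Meg3 were chosen after seeing the data. Every gene of the list is named, in full where it passed 4-fold or led its cluster. Genes of other lists are named where they passed 4-fold or were the highest. Begain, Dnmt1, Zfp57, Dppa3, Igf1, Igf1r, Igfbp3, Igfbp4, Igfbp7, Postn, Bmp4, Angptl7 and the single markers were named after their values were seen. The value of 1 marker is not reported here. Alternatives were DESeq2 (1.42.0) size factors, total counts, upper quartile scaling, other count minimums and fold limits, a prior count of 2, protein-coding genes as background and levels without length correction.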

Additional observations from a re-analysis of the deposited data

How the results depend on the processing

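No paired analysis was possible because a single library stood for the intracranial and a single one for the extracranial tumor, and for the same reason no replicate could be left out. The 7 calls beyond 4-fold became 6 with total counts, which lost Mest, 5 with a minimum of 100 counts, 10 beyond 2-fold and 9 with the ratio alone. They remained 7 with DESeq2 size factors, upper quartile scaling and any count, and of protein-coding genes 2.11% were called on the extracranial and 6.84% on the intracranial side. Of all genes, 1.78% and 5.41% were called beyond 4-fold and 5.86% and 9.77% beyond 2-fold, in the same order. For the other settings the share of all genes was not taken, so those counts have no background beside them. Over these scalings, a prior count of 2 and the higher count minimum, the median log2 ratio stayed between -0.22 and -0.16, and scaling shifted all ratios by -0.02 to 0.04. Chosen after seeing the data, leaving out the Dlk1-Meg3 cluster gave -0.17 with 7 calls, and leaving out genes with exon overlap gave -0.13 over 28 genes with 5 calls, since Gnas and Mest are among those left out. Without genes of limited imprinting, the maternal median moved from -0.14 to -0.54 and the paternal one from -0.36 to -0.45, which reversed their order. The summed level of the Dlk1-Meg3 cluster moved beyond its narrow counting interval, from 6737 CPM to 6702 with DESeq2 size factors, 6776 with total counts and 6649 with upper quartile scaling in the library labelled intracranial, and from 4072 to 4127 CPM with the last in the other. Without length correction, 4 of the 5 highest imprinted genes were the same in each library. Adding 2 to each count instead of using the floor moved single genes by -0.75 to 0.73 on the log2 scale, with Plagl1 at -7.11, Slc38a4 at -4.55, Phlda2 at -4.21 and Nap1l5 at -2.79. No alternative run could turn the direction of a called gene, since the called ratios lay beyond 4-fold and the shifts were smaller. Depth limits Asb4, Magel2, Usp29, Zdbf2 and Igf2, which had 15 or fewer counts over both libraries.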
